A study of Mus musculus with 4 samples.

Results

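The genes of the mitochondrial respiratory chain and ATP synthase were followed in Langerhans cells, which sample antigen in the epidermis, from mice given TCDD (2,3,7,8-tetrachlorodibenzo-p-dioxin) or its vehicle. Members were the probe sets with a single platform gene symbol that begins with Nduf, Uqcr, Cox4 to Cox8 or Atp5, or is Sdha, Sdhb, Sdhc or Sdhd. This rule uses names and no measured value. It took 156 probe sets of 84 genes out of 22626 non-control probe sets, which carry 12393 single gene symbols, and 8 further probe sets with a matching symbol also carried another gene's symbol and were left out. There were 68 probe sets of 34 complex I genes, 6 of 5 complex I assembly factors, 7 of 4 complex II genes, 15 of 8 complex III genes, 32 of 16 complex IV genes and 28 of 17 ATP synthase genes. Complexes were assigned by the start of the gene symbol alone, and the place of each protein was not checked.

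The study held 4 one-colour Affymetrix arrays. TCDD 1 and TCDD 2 came from mice that received 10 µg TCDD in 100 µl, in oil for TCDD 1 and in DMSO and oil for TCDD 2, and control 1 from mice that received 100 µl of DMSO and olive oil. Control 2 is a control by its title and description, which were followed here, although its treatment field names TCDD in DMSO and oil. Injection was intraperitoneal, the cells were taken 24 h later, and the purity stated for the sort was 95%. TCDD 1 and control 1 name no skin site, and TCDD 2 and control 2 name back skin. Neither strain, age, sex nor the number of mice per sample is given in the labels, so p-values rest on a spread between samples that could be technical alone.

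The respiratory chain passes electrons from NADH (complex I) and succinate (complex II) through complex III to oxygen at complex IV, and pumps protons across the inner mitochondrial membrane. ATP synthase, also called complex V, uses the return of these protons to make ATP. The members are nuclear genes, whose products are imported and assembled with the few subunits that mitochondrial DNA encodes. TCDD acts through the aryl hydrocarbon receptor (AhR), which moves to the nucleus on binding it and switches on genes of drug metabolism.

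The labelled cell type was checked against markers. Epcam, a surface protein that marks Langerhans cells among skin dendritic cells, read 7540.8 and 8362.1 on TCDD 1 and 2 and 8717.0 and 10032.1 on controls 1 and 2, in arbitrary units of MAS5 signal, the authors' linear scale. Cd207, which encodes langerin, read 5343.3 and 2154.7 after TCDD and 2119.9 and 7210.5 in controls. Of 12 listed Langerhans cell genes, 10 were bright enough to be tested, and Runx3 and Itgam were not. Signals of 8 T cell markers (of 11 listed, none at 0) summed to 1407.2 and 711.0 after TCDD and 706.3 and 2079.0 in controls. Those of 11 keratinocyte markers summed to 1596.8 and 2131.6 after TCDD and 1809.1 and 1582.4 in controls. For 7 melanocyte markers the sums were 1627.0 and 1404.5 after TCDD and 1550.1 and 1965.5 in controls. For 9 fibroblast and endothelial markers they were 1176.2 and 1024.2 after TCDD and 1136.8 and 1385.1 in controls. For 7 mast cell and granulocyte markers they were 685.2 and 931.2 after TCDD and 634.7 and 777.2 in controls. For actin, the 3′ probe set read brighter than the 5′ one by a factor that grows as RNA gets shorter, and this factor was 3.48 and 7.71 on TCDD 1 and 2, and 49.7 and 4.64 on controls 1 and 2. Of 5 tested AhR target genes, 1 was higher and 1 lower after TCDD in both sites and 0 passed the limma test. Over all tested probe sets, 19.3% were higher and 21.3% lower in both sites. Among the AhR target genes, Cyp1a1 read 94.9 and 190.7 after TCDD and 182.8 and 117.8 in controls. In sorted bulk cells, fewer cells of a type and less RNA per cell cannot be told apart.

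Most members were measured well above the low end of the arrays. A filter at the 40th percentile of mean log2 signal, a signal of 115.4, kept 144 of the 156 probe sets and 80 of the 84 genes. The mean was taken over all 4 arrays. Over these 144, the median signal was 1566.7 and 1655.5 on TCDD 1 and 2 and 1532.0 and 1522.9 on controls 1 and 2. Signals of different probe sets depend on their probes and do not rank the genes.

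The first comparison asked whether these genes differ after TCDD. None did by the test: 0 of the 144 probe sets differed between TCDD and control (limma, smallest adjusted p 0.9999), where the background over all 13576 tested probe sets was 0%. At an unadjusted p under 0.05 there were also 0 members, against 1.47% of all tested probe sets. The median TCDD minus control log2 difference of the members was 0.03, with quartiles at -0.13 and 0.19, and that of all tested probe sets was -0.01. The difference was under 0.5 log2 units in size for 135 of the 144 (93.8%), against 87.5% of all tested probe sets. Members are brighter than most probe sets, and among those at or above the 60th percentile of mean log2 signal the share was 91.9%. Values ranged from -0.64 to 0.96.

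The fit had treatment and skin site as terms, and its intervals were wide. The 95% intervals of the members reached between 0.59 and 1.27 log2 units to either side of the estimate, with a median of 0.78. A member that misses the threshold is therefore not shown to be unchanged.

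Few members kept the groups apart. Both TCDD arrays lay above both controls for 9 of the 144 (6.25%), against 12.4% of all tested probe sets, and below both controls for 12 (8.33%), against 13.2%. TCDD was higher than control in both sites for 24 probe sets (16.7%, background 19.3%) and lower in both for 21 (14.6%, background 21.3%).

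**Figure D1:**
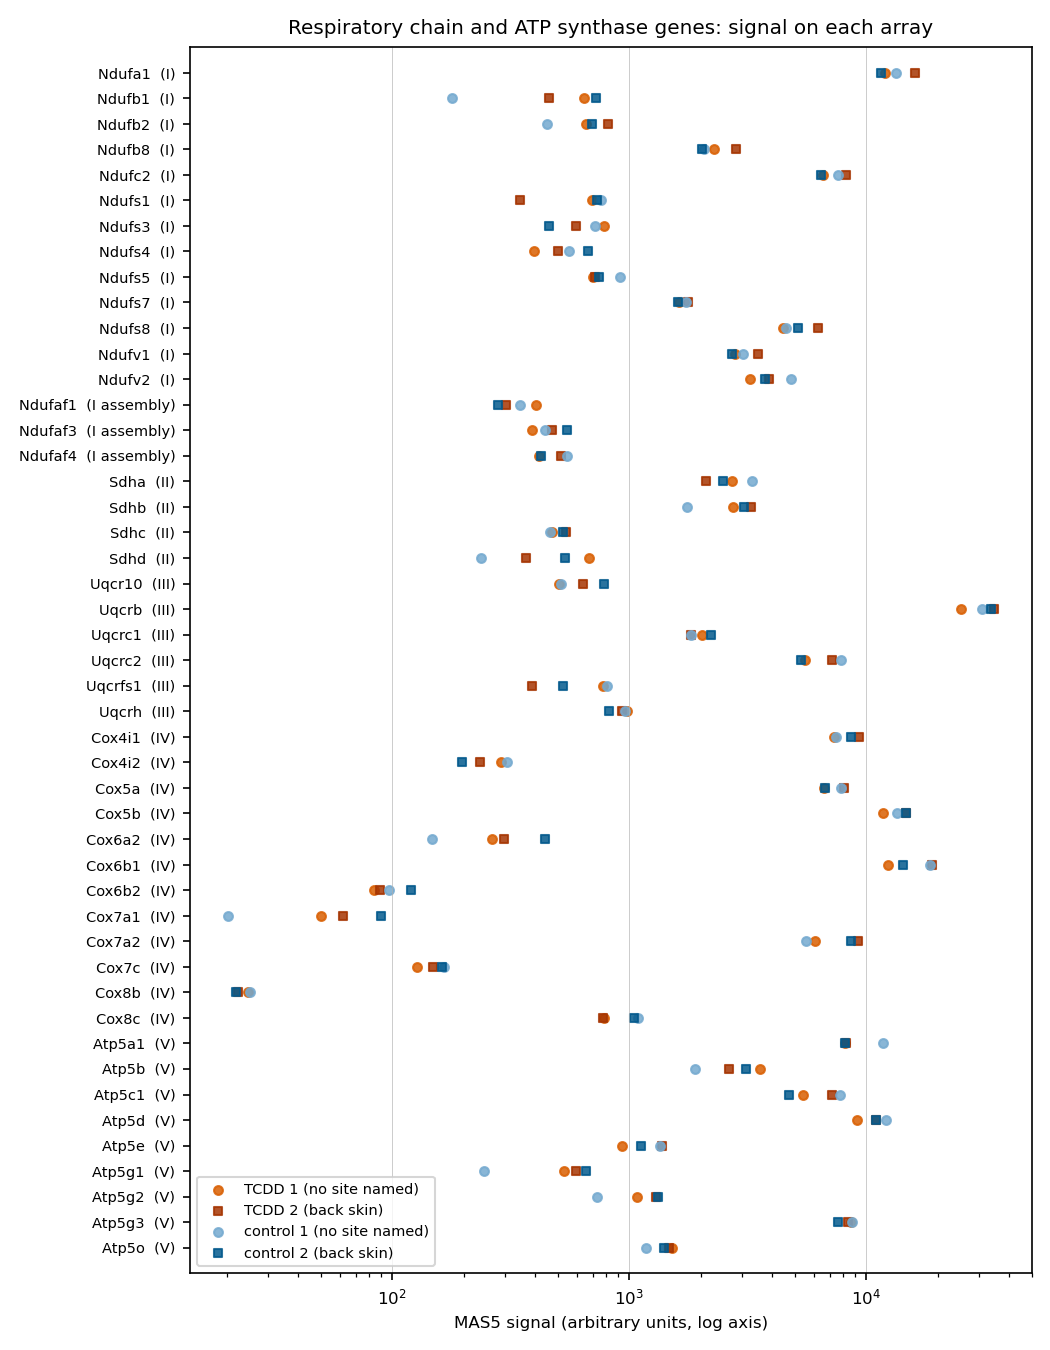
MAS5 signal (log axis) of the named genes on each array, 1 row per gene with its complex in brackets, by the probe set of highest mean signal; circles are arrays with no site named and squares back skin, orange for TCDD and blue for control. The 4 points of most genes lie close together, and control 1 stands to the left for Ndufb1, Sdhd and Atp5g1.

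Complex I, the NADH dehydrogenase, had 65 tested probe sets. In both sites, 9 were higher after TCDD and 9 lower, with a median log2 difference of 0.02. Among its core subunits, Ndufv1, which binds NADH and flavin, read 2798.9 and 3491.8 after TCDD and 3008.0 and 2710.2 in controls (0.13 ± 0.34, log2 difference ± SE, n = 2 per group). Its partner Ndufv2, an iron-sulfur protein, read 3245.5 and 3877.1 after TCDD and 4812.1 and 3754.9 in controls (-0.26 ± 0.34). By these probe sets the groups overlapped in both genes. For Ndufv1, probe sets 1415967_at (0.25 ± 0.35) and 1456015_x_at (0.22 ± 0.33) had both TCDD arrays above both controls. For Ndufv2, 1428179_at (-0.36 ± 0.34) had both below, while 1438159_x_at (-0.31 ± 0.35) overlapped.

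Ndufs1, the largest iron-sulfur subunit, read 697.2 and 345.3 after TCDD and 756.9 and 732.9 in controls (-0.60 ± 0.38). Both TCDD values lay below both controls, but the log2 ratio was -0.12 with no site named and -1.09 on back skin arrays. Ndufs3, Ndufs7 and Ndufs8 belong to the arm that hands electrons to ubiquinone. Ndufs3 read 784.0 and 593.8 after TCDD and 717.0 and 456.5 in controls (0.25 ± 0.34). Ndufs7 read 1613.5 and 1766.2 after TCDD and 1729.1 and 1610.9 in controls (0.02 ± 0.34), a range narrower than that of the other core subunits named here, while its dimmer probe set gave -0.52 ± 0.43. Ndufs8, by its brightest probe set, read 4461.4 and 6276.2 after TCDD and 4590.9 and 5128.3 in controls (0.13 ± 0.32).

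The accessory subunits surround this core. Ndufs4, whose loss impairs complex I in mice and humans, read 397.5 and 502.4 after TCDD and 557.7 and 668.6 in controls (-0.45 ± 0.34) by its brightest probe set, with both TCDD values below both controls. Its other tested probe sets gave 0.14 ± 0.38 and 0.24 ± 0.40, so the sign rests on the choice of probe set. Ndufs5 read 703.5 and 714.0 after TCDD and 916.8 and 744.8 in controls (-0.22 ± 0.34).

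Other accessory genes lay on the higher side. Ndufb8, a membrane arm subunit, read 2268.7 and 2832.9 after TCDD and 2075.0 and 2017.6 in controls (0.31 ± 0.34), with no overlap. Ndufb2 read 658.6 and 814.7 after TCDD and 449.5 and 697.3 in controls (0.39 ± 0.34), with TCDD 1 below control 2. Ndufa1, which is X-linked, read 11957.1 and 16016.4 after TCDD and 13332.2 and 11505.8 in controls (0.16 ± 0.30). For every complex I gene named here the limma adjusted p was 0.9999.

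The assembly factors help to build complex I and do not stay in it. Ndufaf1 read 404.3 and 302.9 after TCDD and 346.8 and 278.0 in controls (0.17 ± 0.34). Ndufaf3 read 389.7 and 472.3 after TCDD and 439.6 and 547.9 in controls (-0.19 ± 0.33). Ndufaf4 read 416.7 and 516.5 after TCDD and 547.5 and 422.4 in controls (-0.05 ± 0.35). By these probe sets the groups overlapped in each of the 3 genes. Another Ndufaf4 probe set, 1435333_at, lay below the filter and did not overlap, at 97.0 and 114.9 after TCDD and 67.6 and 71.9 in controls. Ndufaf5 held the lowest difference of all tested members, -0.64 ± 0.50, and was named after its values were seen. It read 186.5 and 71.0 after TCDD and 173.4 and 186.3 in controls, so that only TCDD 2 was low. Ndufaf7 lay below the filter.

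Complex II, succinate dehydrogenase, also works in the citric acid cycle, and its 4 subunits are all nuclear. Sdha, the flavoprotein that oxidizes succinate, read 2712.0 and 2102.1 after TCDD and 3304.8 and 2485.2 in controls (-0.26 ± 0.33). By this probe set Sdha was lower after TCDD in both sites, but TCDD 1 lay above control 2. Its dimmer probe set gave -0.20 ± 0.40, with log2 ratios of -0.85 where no site is named and 0.45 for back skin. Sdhb, the iron-sulfur subunit, read 2726.7 and 3266.9 after TCDD and 1748.2 and 3052.9 in controls (0.37 ± 0.34). It was higher in both sites, and TCDD 1 lay below control 2. The membrane anchors are Sdhc and Sdhd. Sdhc read 470.3 and 538.6 after TCDD and 464.8 and 526.2 in controls (0.03 ± 0.34). Sdhd read 673.1 and 368.0 after TCDD and 235.6 and 538.0 in controls (0.48 ± 0.49), where each site gave the opposite sign. Its dimmer probe set gave -0.03 ± 0.38.

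The promoters of Sdha and Sdhb are shown because both hold the core letters to which AhR and its partner bind, while the Sdha and Sdhb differences had opposite signs and neither passed the test. The windows are the 250 bases before the gene's start in RefSeq (GRCm38.p6), Sdha at chr13:74350241-74350490 on the minus strand and Sdhb at chr4:140961021-140961270 on the plus strand, 5′ to 3′ as the gene is read. Capitals mark the match to TNGCGTG on either strand.
Sdha: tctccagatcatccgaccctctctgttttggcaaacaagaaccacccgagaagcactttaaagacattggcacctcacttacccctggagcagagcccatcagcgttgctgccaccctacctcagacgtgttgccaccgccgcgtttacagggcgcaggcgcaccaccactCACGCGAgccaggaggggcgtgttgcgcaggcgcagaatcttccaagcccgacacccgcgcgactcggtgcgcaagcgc
Sdhb: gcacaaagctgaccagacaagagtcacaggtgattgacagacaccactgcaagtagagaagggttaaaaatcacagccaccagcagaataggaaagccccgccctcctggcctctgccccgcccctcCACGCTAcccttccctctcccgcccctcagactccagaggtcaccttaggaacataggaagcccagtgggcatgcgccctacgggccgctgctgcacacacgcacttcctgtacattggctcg
In both windows the match lies on the opposite strand to the gene and reads as CACGCNA. Such a match is a description of letters and does not show that the receptor binds there.

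Windows from 250 bases before to 50 after the start were found for 70 of the 84 genes, 75 windows in all. On either strand, TNGCGTG was held by 11 of the 75 (14.7%), against 5.07% of 32851 windows of all genes in the table. The palindromic core site of nuclear respiratory factor 1, spelled out by the capitals in the Atp5g2 promoter given with ATP synthase, was held by 6 (8%), against 0.971% of all windows. AAGATGGCG, which holds the YY1 core, was held by 6 (8%), against 1.4%. ACTTCCGG, an ETS family site, was held by 5 (6.67%), against 3.89%. TCAAGGTCA, the site of the estrogen-related receptors, was held by 2 (2.67%), against 0.423%. In 0 member windows did matches of different motifs share a base. The windows of all genes include many genes that are not active in these cells, and base composition was not matched.

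Complex III passes electrons from ubiquinol to cytochrome c, and had a median log2 difference of 0.01 over 15 tested probe sets, 4 higher and 3 lower after TCDD in both sites. Uqcrfs1, the Rieske iron-sulfur protein, read 775.0 and 387.0 after TCDD and 809.1 and 524.7 in controls (-0.25 ± 0.34). Within TCDD and within control, the back skin array was the lower. Of the core proteins, Uqcrc1 read 2024.6 and 1829.5 after TCDD and 1820.0 and 2221.3 in controls (-0.06 ± 0.34). Uqcrc2 read 5515.4 and 7193.7 after TCDD and 7834.6 and 5308.5 in controls (-0.03 ± 0.35). TCDD 2 and control 1 were the higher pair.

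The small subunits of complex III gave both signs. Uqcrb, which binds near the ubiquinone site, read 25055.3 and 34487.7 after TCDD and 30816.2 and 33485.8 in controls (-0.13 ± 0.26), the smallest SE of any tested member, and its dimmer probe set gave 0.36 ± 0.41. Uqcrh, the hinge protein, read 981.4 and 932.9 after TCDD and 958.2 and 821.8 in controls (0.11 ± 0.34). Uqcr10 read 506.4 and 639.5 after TCDD and 517.4 and 781.8 in controls (-0.16 ± 0.34), against 0.01 ± 0.34 and 0.09 ± 0.34 by its other probe sets. For every complex III gene named here the limma adjusted p was 0.9999.

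Complex IV, cytochrome c oxidase, had a median log2 difference of 0.07 over 26 tested probe sets, 4 higher and 6 lower after TCDD in both sites. Cox4i1, the common form of the largest nuclear subunit, read 7288.2 and 9315.9 after TCDD and 7416.4 and 8659.1 in controls (0.04 ± 0.30). Cox5a read 6644.5 and 8043.5 after TCDD and 7834.7 and 6693.5 in controls (0.01 ± 0.31). Cox5b read 11712.1 and 14691.5 after TCDD and 13507.2 and 14722.2 in controls (-0.10 ± 0.28). By these probe sets the groups overlapped in each of the subunits. The other 2 probe sets of Cox5a gave -0.03 ± 0.33 and 0.48 ± 0.37, and the other 4 of Cox5b lay between -0.43 and 0.38. Only in the lowest of these, Cox5b probe set 1436149_at, did both TCDD arrays lie below both controls.

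Further subunits of the complex stayed in the same range. Cox6b1, on the side that faces cytochrome c, read 12366.1 and 18915.4 after TCDD and 18558.0 and 14266.7 in controls (-0.09 ± 0.32), and its dimmer probe set gave 0.11 ± 0.31. Cox7a2 read 6070.6 and 9224.1 after TCDD and 5582.5 and 8604.7 in controls (0.11 ± 0.30), with back skin above the other site in both groups. Cox7c, measured by a dim probe set, read 127.5 and 147.8 after TCDD and 165.8 and 161.3 in controls (-0.25 ± 0.42).

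Several complex IV subunits have forms that other tissues use. Cox8b, of heart and muscle, read 24.6 and 22.4 after TCDD and 25.0 and 22.0 in controls, below the 20th percentile of every array, which lay between 36.6 and 40.6. Cox7a1, another muscle form, read 49.9 and 61.7 after TCDD and 20.3 and 89.6 in controls, and Cox6b2, a testis form, 84.0 and 88.4 after TCDD and 96.9 and 120.5 in controls. These 3 lay below the filter and were not tested. Cox4i2, a form known from lung, read 287.1 and 233.9 after TCDD and 303.6 and 196.5 in controls (0.09 ± 0.36). Cox6a2, of muscle, read 263.3 and 294.9 after TCDD and 147.4 and 439.4 in controls (0.13 ± 0.42), with the controls on either side of the TCDD arrays.

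Cox8c, a form known from testis, was lower after TCDD in both sites. It read 782.1 and 777.2 after TCDD and 1092.6 and 1050.6 in controls (-0.46 ± 0.34), and each group agreed closely within itself. The log2 ratio was -0.48 where no site is named and -0.43 for back skin. The limma adjusted p was 0.9999, from a test whose error is moderated over all probe sets, and this gene has a single probe set here.

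**Figure D2:**
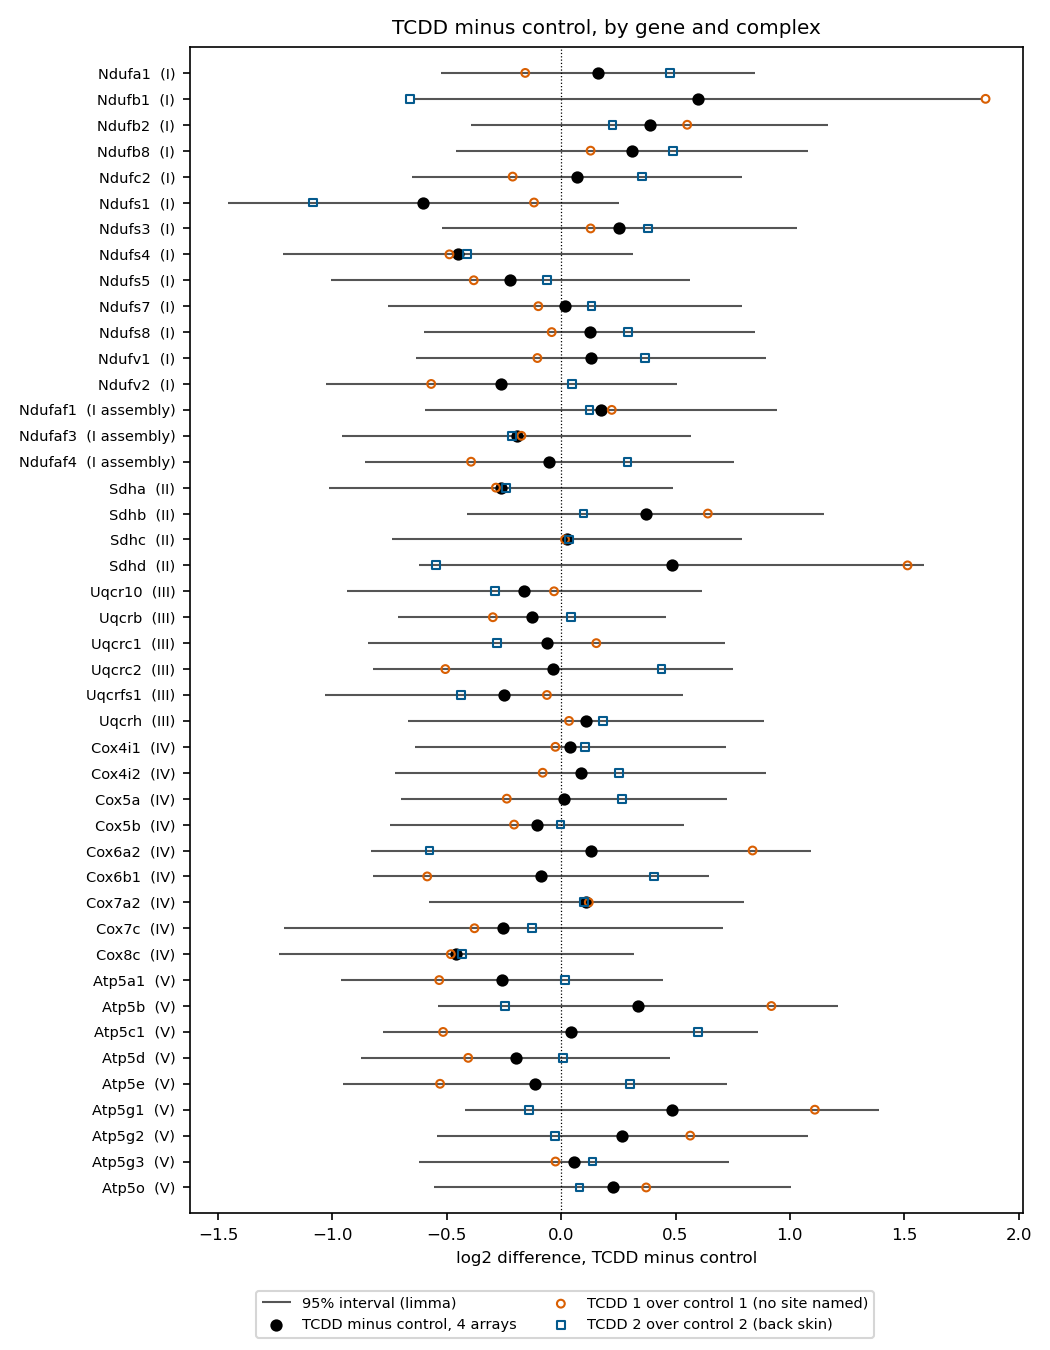
TCDD minus control log2 difference of each tested named gene (black, with its 95% limma interval from 4 arrays) and the log2 ratio within each site (open orange circles, no site named; open blue squares, back skin). Each gene is drawn by its probe set of highest mean signal. Every interval holds 0. The within-site ratios of Cox8c, Ndufs4 and Sdha lie close to each other, and those of Ndufb1 and Sdhd on opposite sides of 0. The other tested probe sets of Ndufs4 and Sdha, not drawn, had ratios of opposite sign between the sites.

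ATP synthase joins a catalytic head to a proton-driven ring. The head subunits gave both signs. Atp5a1 (alpha) read 8126.6 and 8207.9 after TCDD and 11760.0 and 8111.2 in controls (-0.26 ± 0.31), so that control 1 alone stood apart. Its other probe sets gave -0.10 ± 0.31 and 0.20 ± 0.56. Atp5b (beta), the catalytic subunit, read 3565.6 and 2622.1 after TCDD and 1885.5 and 3111.5 in controls (0.34 ± 0.38), with control 1 the lowest. Control 1 was thus the highest array for one head subunit and the lowest for its partner.

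The central stalk turns inside the head. Atp5c1 (gamma) read 5393.2 and 7168.8 after TCDD and 7712.8 and 4735.7 in controls (0.04 ± 0.36). Atp5d (delta) read 9162.5 and 11004.9 after TCDD and 12144.0 and 10940.0 in controls (-0.20 ± 0.30), against 0.09 ± 0.34 by its dimmer probe set. Atp5e (epsilon) read 934.5 and 1377.0 after TCDD and 1348.8 and 1117.9 in controls (-0.11 ± 0.37). By these brightest probe sets, all 3 were lower on TCDD 1 than on control 1, and higher on TCDD 2 than on control 2. The dimmer probe set of Atp5d went the other way in both sites, with log2 ratios of 0.29 and -0.12. That of Atp5c1 went the same way, at -0.35 and 0.78. Atp5o, which links the head to the outer stalk, read 1520.4 and 1474.3 after TCDD and 1175.0 and 1394.9 in controls (0.23 ± 0.34), with no overlap. Its dimmer probe set gave 0.32 ± 0.41, and there the groups overlapped.

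Subunit c forms the ring, and 3 genes encode the same mature protein behind different import signals. Atp5g1 read 527.9 and 598.0 after TCDD and 244.7 and 659.3 in controls (0.48 ± 0.40). Atp5g2 read 1076.9 and 1300.9 after TCDD and 728.2 and 1326.6 in controls (0.27 ± 0.36). Atp5g3 read 8591.1 and 8341.5 after TCDD and 8740.1 and 7585.6 in controls (0.06 ± 0.30). Atp5g1 and Atp5g2 were lowest on control 1, whereas Atp5g3 was highest there. For every ATP synthase gene named here the limma adjusted p was 0.9999.

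The promoters of these 3 genes are shown because they stand before the same mature protein and share none of the motif matches searched. Each is the 250 bases before the start, 5′ to 3′ in the direction of the gene, in RefSeq GRCm38.p6. Atp5g1 lies at chr11:96075632-96075881, Atp5g2 at chr15:102671048-102671297 and Atp5g3 at chr2:73911327-73911576, all on the minus strand.
Atp5g1: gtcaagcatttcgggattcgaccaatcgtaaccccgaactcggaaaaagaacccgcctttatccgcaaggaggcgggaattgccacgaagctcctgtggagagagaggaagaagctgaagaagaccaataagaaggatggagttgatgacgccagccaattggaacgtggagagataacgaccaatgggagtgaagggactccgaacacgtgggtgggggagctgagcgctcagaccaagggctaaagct
Atp5g2: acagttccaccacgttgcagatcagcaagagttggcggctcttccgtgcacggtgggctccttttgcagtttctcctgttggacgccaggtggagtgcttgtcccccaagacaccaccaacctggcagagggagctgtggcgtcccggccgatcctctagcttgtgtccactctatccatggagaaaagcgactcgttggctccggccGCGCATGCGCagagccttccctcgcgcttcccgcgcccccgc
Atp5g3: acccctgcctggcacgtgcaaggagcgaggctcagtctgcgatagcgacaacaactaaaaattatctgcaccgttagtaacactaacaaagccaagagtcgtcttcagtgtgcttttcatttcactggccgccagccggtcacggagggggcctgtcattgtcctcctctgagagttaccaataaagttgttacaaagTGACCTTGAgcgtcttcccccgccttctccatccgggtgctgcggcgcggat
Capitals mark the nuclear respiratory factor 1 core site of Atp5g2 and the match to TCAAGGTCA of Atp5g3, on the strand opposite to the gene. The window of Atp5g1 held none of the 5 motifs, which says only that those letters are not in it.

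The members differed between sites in the direction of their TCDD to control ratio more often than they shared it. Of the 144, 64 (44.4%) were lower after TCDD where no site is named and higher in back skin, against 25.8% of all tested probe sets. Another 35 (24.3%) went the other way, against 33.6% of all tested probe sets. Among the 9051 probe sets at or above the 60th percentile of mean log2 signal, 2642 went the first way and 2935 the other. The median log2 ratio of the members was -0.05 where no site is named and 0.10 for back skin, and that of all tested probe sets was 0.03 and -0.06 in that order of sites. Each site holds 1 TCDD and 1 control array, so the difference between sites has no replicate error and was not tested. Pearson's r between the ratios of the sites was -0.43 over the 144 member probe sets and -0.25 over all 13576. Of all pairs of arrays, TCDD 1 and control 2 were the closest. The standard deviation of their log2 differences was 0.36 over members and 0.46 over all tested probe sets. Control 1 and control 2 lay furthest apart, at 0.64 and 0.69. Control 2 is the sample with conflicting labels, whose part in the site pattern was not tested. Probe sets share arrays and genes, and these values are descriptions.

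ATP synthase held the widest gap between sites. Its median log2 ratio was -0.35 where no site is named and 0.14 for back skin, and 17 of its 27 tested probe sets were lower in the first and higher in the second. Complex I had -0.10 and 0.14 in the same order (30 of 65), and complex IV -0.09 and 0.11 (12 of 26). Complex III had 0.06 and -0.09 (3 of 15), and complex II 0.25 and 0.03 (1 of 7). Cytosolic ribosomal protein genes, taken by name, had -0.08 and 0.15, with 41 of 84 probe sets of that kind, and proteasome subunit genes 0.18 and 0.01, with 15 of 56.

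**Figure D3:**
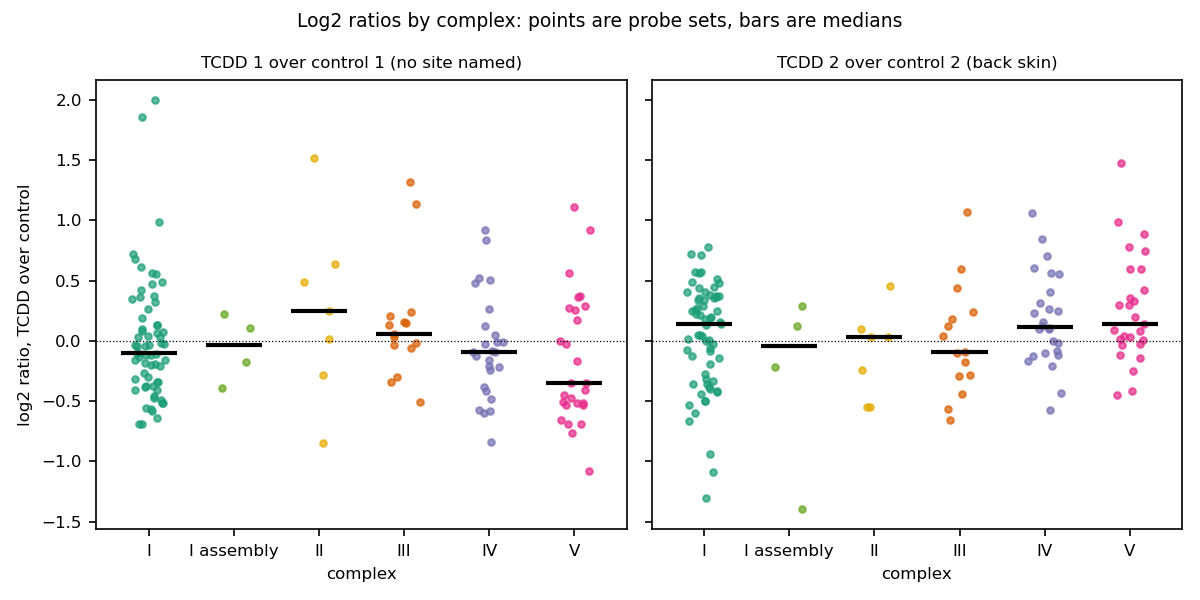
Log2 ratio of TCDD to control for each tested probe set, by complex, no site named at left and back skin at right; black bars are medians. The ATP synthase median is -0.35 on the left and 0.14 on the right.

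Other measures moved with the same arrays. The actin 3′ to 5′ ratio was 3.48 on TCDD 1 and 49.7 on control 1, the arrays with no site named, and 7.71 on TCDD 2 and 4.64 on control 2, the back skin arrays, so it was lower after TCDD in the first and higher in the second. The Gapdh ratios were 9.55 and 15.9 on TCDD 1 and 2 and 106.8 and 11.9 on controls 1 and 2. The T cell marker sum, given with the cell type check, went in the reverse sense. Their part in the site pattern was not tested.

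**Figure D4:**
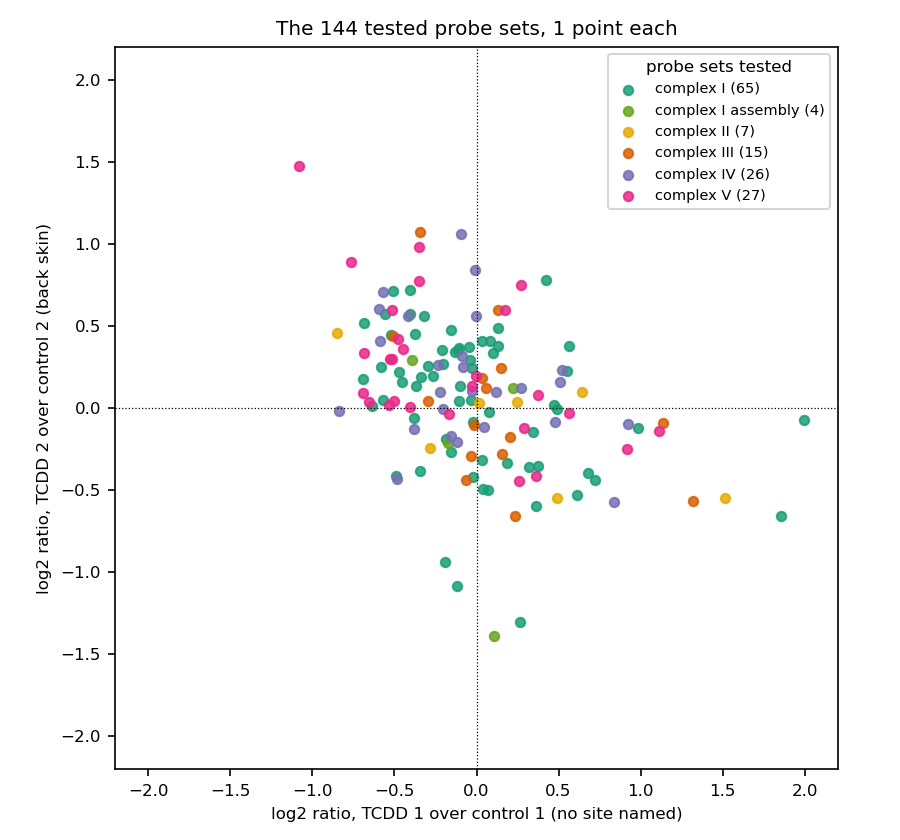
Each point is a tested member probe set, with its log2 ratio of TCDD to control, no site named on x and back skin on y, coloured by complex. Of 144 points, 64 lie in the upper left field and 24 in the upper right.

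Some members stood apart on control 1 alone, at a share near that of all tested probe sets. On 9 of the 144 probe sets (6.25%) control 1 lay at least 1 log2 unit below the mean of the other 3 arrays, against 5.33% of all tested probe sets. It was the lowest array for 42 of the 144 (29.2%, background 31.7%) and the highest for 40 (27.8%, background 27.6%). The complexes differed: control 1 was lowest for 7 and highest for 13 of 27 in ATP synthase. In the same order it had 5 and 2 of 7 in complex II, and 18 and 16 of 65 in complex I. Complex III had 5 and 3 of 15, complex IV 7 and 5 of 26, and the assembly factors 0 and 1 of 4. Ndufb1, an accessory subunit with 1 probe set here, read 644.2 and 460.0 after TCDD and 178.0 and 727.1 in controls (0.60 ± 0.54). Probe set 1416366_at of Ndufc2, another membrane arm subunit, read 672.0 and 493.5 after TCDD and 168.6 and 519.6 in controls (0.96 ± 0.49), the highest difference among tested members. Both rose by the test when control 2, the sample with conflicting labels, was left out, so that control 1 was the lone control. The log2 difference was then 1.77 for Ndufc2 (limma, adjusted p = 0.00342) and 1.61 for Ndufb1 (limma, adjusted p = 0.00862). Of all tested probe sets, 2.1% passed in that fit, 1.96% being higher after TCDD. In the other fits the limma adjusted p lay between 0.527 and 1 for Ndufc2 and between 0.9983 and 1 for Ndufb1. Without control 1 the log2 differences were 0.15 for Ndufc2 and -0.42 for Ndufb1, and 0 members passed, against 0.0884% of all tested probe sets. With control 2 and TCDD 1 as a block in place of the site, 0 members passed, against 0.0737%.

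The other members of this kind came from every complex. They were probe sets of Ndufb2, Sdhd, Uqcrq, Uqcr11, Cox6a2, Cox7a2 and Atp5g1. Uqcr11, a small complex III subunit, read 1296.2 and 1431.6 after TCDD and 590.2 and 1523.7 in controls. Uqcrq read 1056.4 and 918.3 after TCDD and 423.7 and 1357.6 in controls by its brightest probe set. Control 1 is also the array on which the actin and Gapdh 3′ to 5′ factors were greatest. The part of RNA length in these values was not tested.

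Probe sets of the same gene often gave different answers. Of the 41 genes with several tested probe sets, 105 in all, 18 had 1 sign for the TCDD minus control difference over all their probe sets and 23 had both signs. The median gap between the highest and the lowest probe set of a gene was 0.29 log2 units. Ndufc2 shows this: probe set 1455036_s_at, its brighter one, read 6549.9 and 8211.1 after TCDD and 7586.9 and 6427.2 in controls (0.07 ± 0.32), with control 1 well within the others. Ndufs8 had 6 tested probe sets, from -0.56 ± 0.36 for 1434212_at to 0.60 ± 0.33 for 1423907_a_at, the widest gap at 1.17. In the first of these, both TCDD arrays lay below both controls, and in the second above them.

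Further genes split in the same manner. Cox7a2 read 3086.6 and 3578.6 after TCDD and 1628.8 and 3831.3 in controls by its dimmer probe set (0.41 ± 0.37), against 0.11 ± 0.30 by the brighter. Atp5a1 had a dim probe set, 1420037_at, at 186.1 and 394.9 after TCDD and 393.1 and 142.0 in controls. Its log2 ratio was -1.08 where no site is named and 1.48 for back skin. It was the only 1 of 144 tested members at least 2-fold and opposite in both sites, against 145 of all 13576 tested probe sets. Of the 156 member probe sets, 26 end in _x_at and 17 in _s_at, names that mark probes shared with other sequences or transcripts. Whether related copies of these genes add to such signals was not tested.

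**Figure D5:**
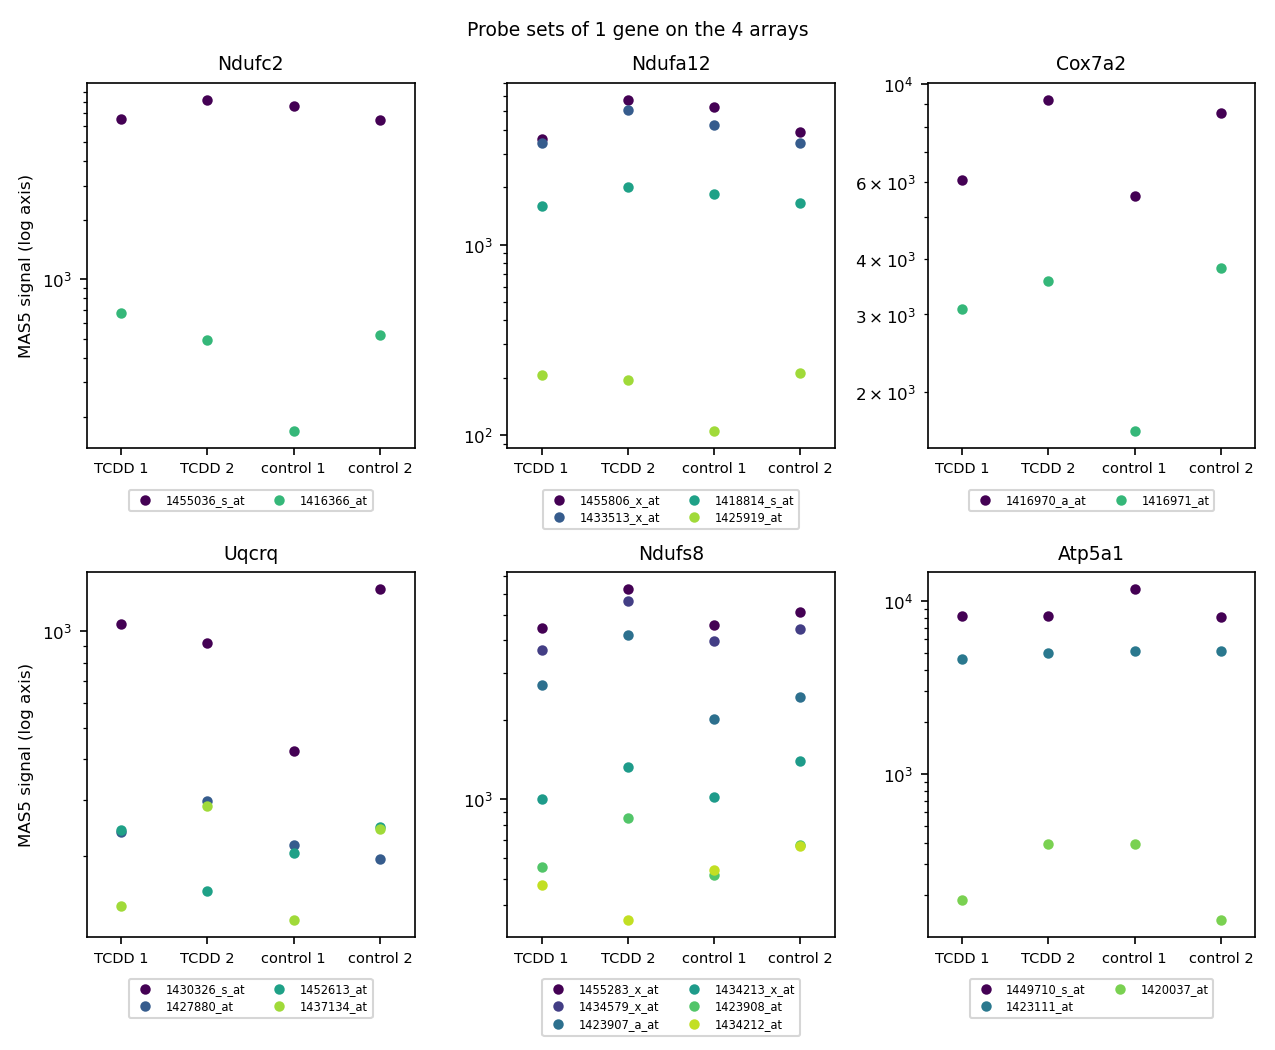
MAS5 signal (log axis) on the 4 arrays for all tested probe sets of 6 genes, 1 colour per probe set. Control 1 is low for the dimmest probe sets of Ndufc2, Ndufa12 and Cox7a2, at 168.6, 104.8 and 1628.8. It is not low for the brightest ones of Ndufc2 and Ndufa12. For Uqcrq the brightest probe set is low on control 1, at 423.7, and for Atp5a1 the dimmest is not, at 393.1. Of the 41 genes with several tested probe sets, 23 had control 1 further down on the dimmest than on the brightest.

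The second comparison asked how back skin differed from the preparation with no site named, whose samples also carry different experiment labels, so that site and experiment cannot be told apart. Among members, 0 of 144 passed (limma, adjusted p under 0.05), with a background of 0%. The median back skin minus other log2 difference was 0.09, against 0.01 over all tested probe sets. It was 0.21 within TCDD and -0.04 within control. At an unadjusted p under 0.05 there were 2 members (limma), against 2.02% of all tested probe sets. Uqcrq probe set 1437134_at read 287.1 on TCDD 2 and 139.9 on TCDD 1, and 242.9 on control 2 and 126.4 on control 1 (0.99 ± 0.38). Uqcrfs1 was lower in back skin in both groups (-0.81 ± 0.34). For Uqcrq the other 3 probe sets gave 0.74, 0.09 and -0.18, so the gene's direction is not settled. Without TCDD 1, 0 members passed for the site, against 0.656% of all tested probe sets.

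The wider mitochondrial gene lists were read beside the members, 1 probe set per gene, and 0 genes passed in any of them for TCDD (limma, adjusted p under 0.05, background 0%). Of 20 tested electron carriers and assembly factors, 5 were higher and 3 lower after TCDD in both sites, with a median of 0.01. Atpaf2, an ATP synthase assembly factor, read 195.9 and 283.1 after TCDD and 62.9 and 216.6 in controls (1.01 ± 0.45), with control 1 low. Cox19, a complex IV assembly factor, read 1318.4 and 1424.5 after TCDD and 699.6 and 1419.1 in controls (0.46 ± 0.37). Ecsit (-0.38 ± 0.34), which serves complex I, and Bcs1l (-0.34 ± 0.36), which serves complex III, lay on the lower side.

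Of 14 citric acid cycle and pyruvate dehydrogenase genes, 1 was higher and 1 lower in both sites, and the median log2 ratio was -0.26 where no site is named and 0.21 for back skin. Dld, a subunit of the pyruvate and oxoglutarate dehydrogenases, read 237.5 and 153.5 after TCDD and 135.7 and 148.6 in controls (0.43 ± 0.42). Mdh2, malate dehydrogenase, read 5724.8 and 6961.0 after TCDD and 7213.0 and 7425.5 in controls (-0.21 ± 0.31). Of 14 genes that serve mitochondrial gene expression, 2 were higher and 3 lower in both sites. Tfam, which packages and transcribes mitochondrial DNA, read 529.1 and 320.0 after TCDD and 661.9 and 462.5 in controls (-0.43 ± 0.34). Tufm, the mitochondrial elongation factor, read 762.7 and 1018.2 after TCDD and 406.1 and 335.4 in controls (1.26 ± 0.36), with no overlap. Of all tested probe sets, 12.4% had both TCDD arrays above both controls. Tfb2m, a mitochondrial transcription factor, had a difference of 0.19 ± 0.35, and Gabpb1, a subunit of an ETS factor, one of -0.25 ± 0.40.

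Of 8 carriers and channels, 2 were higher and 1 lower in both sites. Vdac3, a pore of the outer membrane, read 5426.2 and 6529.0 after TCDD and 4273.7 and 4904.5 in controls (0.38 ± 0.31), and Slc25a5, an ATP/ADP exchanger, read 4082.6 and 4581.5 after TCDD and 2982.1 and 3850.3 in controls (0.35 ± 0.32). Slc25a3, which imports the phosphate that ATP synthase uses, read 12269.5 and 9956.1 after TCDD and 14176.6 and 13797.0 in controls (-0.34 ± 0.29). In these 3 genes, picked for 1 sign in both sites, the TCDD and control values did not overlap. Over all tested probe sets, both TCDD arrays lay above both controls for 12.4% and below both for 13.2%. Of 14 import genes, 1 was higher and 5 lower in both sites, against 19.3% and 21.3% of all tested probe sets. Timm8b, which guides proteins to the inner membrane, read 69.7 and 123.3 after TCDD and 225.1 and 348.2 in controls (-1.59 ± 0.41), with no overlap. Tomm22, an import receptor, read 967.8 and 1357.2 after TCDD and 1482.4 and 1567.2 in controls (-0.41 ± 0.35). A single listed gene of mitochondrial DNA, ND5 of complex I, had a probe set, which read 4282.2 and 5623.4 after TCDD and 4124.8 and 6373.2 in controls (-0.06, log2).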

How the data were processed

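Sorted cells gave RNA for 4 Affymetrix arrays of 1 colour. Deposited values are linear MAS5 intensity, 1 per probe set. Both affy and MAS5 stand in the submitters' processing notes. Versions, background settings and detection calls were not given in the sources used here. Each array of deposited intensity values had a mean of 499.7 or 499.8 after the lowest and highest 2% were removed, so the authors' scaling was common to all. Of 22690 probe sets, 64 were controls, and 20380 of the rest had 1 gene symbol. All 84 member genes matched RefSeq by gene ID, and 0 symbols were updated.

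Samples were grouped by title. Signals were taken to log2, and the 13576 probe sets at or above the 40th percentile of mean log2 signal (6.85) were fitted with limma 3.58.1 (R 4.3.3), the terms being treatment and site, eBayes with a trend and Benjamini-Hochberg adjustment over all of them at 0.05. Only 1 residual degree of freedom remains, which eBayes moderates, and the number of arrays limits the precision. Site comes from the titles. Back skin minus the other site gave Pearson's r of -0.18 between TCDD and control over all tested probe sets, so same-site arrays did not share their deviations. The code was first tested on simulated data. The members and gene lists were chosen with earlier results of these data known.

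A gene stands by its tested probe set of highest mean log2 signal. Named were core and fixed subunits, tissue-restricted isoforms, the brightest gene of each complex, up to 3 per complex and direction with 1 sign in both sites, up to 2 per further list and direction, and members past 0.05 in any fit. Others, such as Ndufaf5 and Uqcr11, were named after their values were seen. Alternatives were quantile normalization, median centring, other filters, a floor of 32, an offset of 50, no trend, no site block, another block, each array left out, and 1 probe set per gene.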

Additional observations from a re-analysis of the deposited data

Results flagged for a closer look

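The median log2 ratios of TCDD to control had opposite signs in the 2 sites, with no site named given first and back skin after it: -0.05 and 0.10 over all tested members, -0.10 and 0.14 in complex I, 0.06 and -0.09 in complex III, -0.09 and 0.11 in complex IV, and -0.35 and 0.14 in ATP synthase. Each site has 1 TCDD and 1 control array, so these differences were not tested.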

How the results depend on the processing

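The count of members past the test for TCDD was 0 in each fit over all 4 arrays, the fit with no site block included, and 0 to 2 when 1 array was left out (2 without control 2, the sample with conflicting labels, where Ndufc2 and Ndufb1 passed). For the site it was 0 in every fit. The median TCDD minus control difference of the members was 0.03 over the 4 arrays, -0.03 with 1 probe set per gene, and -0.07 to 0.13 with 1 array left out. For complex I assembly factors, -0.12 over 4 probe sets, it was -0.13 after quantile normalization, -0.052 with the filter at the 60th percentile, -0.11 with an offset of 50, and -0.14 to -0.046 with 1 array left out. For complex II it was 0.20 with 1 probe set per gene, against 0.03, and for complex IV -0.15 to 0.24 with 1 array left out. The causes were not tested. Fits without an array drop the site term and assume that a lone array varies like the others. With 2 arrays per group, the median interval for members was 0.78 log2 units to either side, before any adjustment for the number of probe sets tested. Changes of less than that size could not be told from none. Larger differences also missed the adjusted threshold, such as 0.96 for Ndufc2 probe set 1416366_at and -1.59 for Timm8b. No detection calls were used. The labels carry no replicate numbers, and the fit paired the arrays by site. Without the site block, 0 members passed and their median difference was 0.03.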
